A study of Mus musculus with 9 samples.

Results

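Dusp1 and Dusp4 encode MAP kinase phosphatases, and 3 accessible regions at these genes were among the 1832 distinct regions that the authors listed in 3 comparisons of ammonium acetate-treated and untreated C2C12 myotubes. A region was taken as a member if the authors' annotation carried either gene symbol, or if it overlapped the gene body extended by 5 kb on each side. Dusp1 had 2 such regions, both found by position, and Dusp4 had 1, found by its symbol. The genes were chosen by the listed log2 fold changes and p-values of these same regions, since the lists hold only regions past a significance limit. Those values are therefore given as a description.

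The assay was ATAC-seq, which reads out open chromatin from where a transposase can insert into DNA, and the cells were myotubes of C2C12, a mouse myoblast line that fuses into multinucleate muscle cells when serum is lowered. All groups had been differentiated for 48 h in horse serum. The 9 libraries fell into 3 groups of 3, described as biological replicates: untreated, and exposed to 10 mM ammonium acetate for either 3 h or 24 h. The same untreated libraries served both exposure times, no group received acetate without ammonium, and all libraries came from a single cell line. Because the lists hold only regions past their limits and no values per library, library depths are unknown here, and marker genes could not be used to check the myotube identity.

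MAP kinases relay growth factor and stress signals by phosphorylation, and the dual-specificity phosphatases remove the phosphates that activate them. Dusp1, also called MKP-1, is a nuclear phosphatase of the stress-activated MAP kinases and of ERK, and its gene is an immediate early gene in many cell types. Dusp4, also called MKP-2, is a nuclear phosphatase of ERK and JNK whose transcription is raised by ERK signalling, so that both enzymes act as negative feedback. In muscle cells, MAP kinases take part in both proliferation and differentiation.

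Dusp1 lies on the minus strand (chr17:26505591-26508472, mm10, 2882 bp), and its start of transcription is at the higher coordinate. The sequence just upstream of that start is shown because none of the listed regions lies there: both listed Dusp1 regions lie beyond the other end of the gene. It covers chr17:26508473-26508722 (GRCm38.p6, minus strand, 250 bases, from RefSeq), with the cAMP response element TGACGTCA and its core TGACG in capitals.
Dusp1 promoter: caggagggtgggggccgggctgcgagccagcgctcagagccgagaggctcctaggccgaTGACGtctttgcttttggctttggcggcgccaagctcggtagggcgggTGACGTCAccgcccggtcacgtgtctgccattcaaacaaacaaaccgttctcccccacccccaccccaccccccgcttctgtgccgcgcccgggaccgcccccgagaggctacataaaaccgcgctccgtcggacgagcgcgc
The full element stands 143 to 136 bases before the gene start and contains the core on each strand. A further core stands 191 to 187 bases before it. The full element was present in the same 250-base window of 1.55% of 32851 RefSeq promoters and the core in 17.8%, both strands being searched. Among the 8 MAP kinase phosphatase genes with a promoter in that table, Dusp1 and Dusp8 held the full element. Dusp4 had no entry there and is not among the 8, so its promoter was not searched. The Dusp1 window also held an E-box CACGTG (6.02% of promoters) and 3 GC boxes GGGCGG (32.7%), of which 2 flank the cAMP response element without overlapping it. There was no match to the AP-1 motif TGANTCA, the CArG box, TATAAA, the ETS core CCGGAA or the NF-kB motif, which were found in 6.75%, 1.47%, 12.4%, 12% and 3.9% of promoters. These matches describe letters in the reference sequence and not occupied sites.

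Both listed Dusp1 regions had a positive log2 fold change after 3 h of ammonium acetate, and neither passed the adjusted threshold. The region nearer to the gene, called the proximal region here (chr17:26502933-26503293, 361 bp), begins 2298 bp past the end of the Dusp1 gene, and the distal region (chr17:26501932-26502307, 376 bp) begins 3284 bp past it. The regions are 625 bp apart and carry no gene symbol in the authors' annotation. The distal region falls wholly within an exon of the transcript ENSMUST00000236778.1, and within an intron of ENSMUST00000235705.1. The proximal region spans the start of both transcripts, with 93 of its bases in their promoter. In the RefSeq table they lie within Gm34455, a long noncoding RNA gene on the same strand (chr17:26467654-26504347). Both lie outside CpG islands, shores and shelves.

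**Figure D1:**
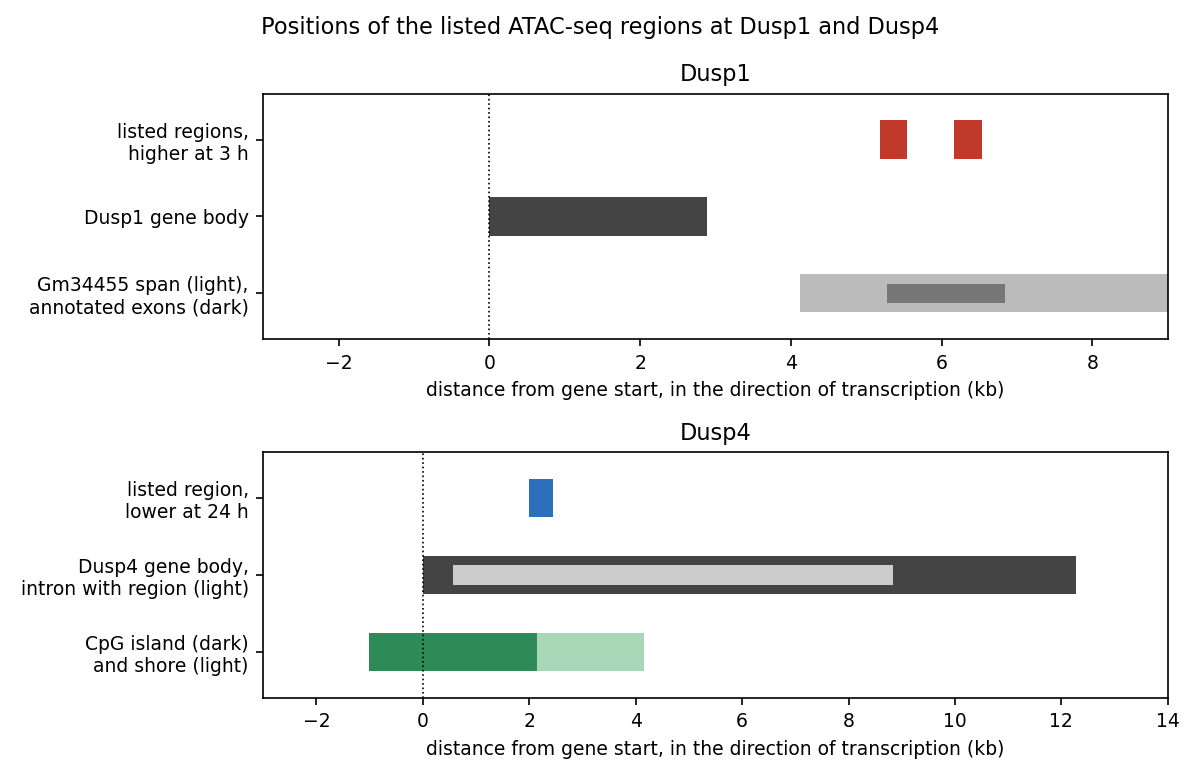
Positions of the listed regions (coloured bars) against the gene bodies (dark bars), with distance from each gene start in kb along the direction of transcription. Both Dusp1 regions, 361 and 376 bp wide, lie past the end of the gene in the span of Gm34455, and the Dusp4 region of 461 bp lies in an intron at the edge of a CpG island.

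At the distal region the authors' deposited table gave a log2 fold change of 1.24 for 3 h against untreated, a 2.36-fold higher level. Its approximate standard error was 0.26, with a 95% interval of 0.69 to 1.78, and the authors' deposited table gave an edgeR adjusted p of 0.425 (raw p = 0.000105). At the proximal region the log2 fold change was 0.82 in the authors' deposited table, 1.76-fold higher, with an interval of 0.35 to 1.28 and an edgeR adjusted p of 0.959 (raw p = 0.00143). With adjusted p above 0.05, both are candidates of the authors' list and not called changes. In such bulk libraries, more cells with a region open and more opening per cell cannot be told apart. The intervals of the 2 regions overlap, but such overlap is no test of a difference within the same libraries. Without values per library, an order between the regions cannot be read here.

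The 327 regions listed as higher at 3 h were 0.224% of the 146047 regions tested, and 1 region in all (0.000685%) passed the adjusted threshold in that comparison. By raw p the distal Dusp1 region ranked 36 and the proximal one 216 among the 588 listed. By size of log2 fold change they ranked 31 and 140 among the 327 higher regions, whose median was 0.77. The mean log2 CPM, the average level over libraries, was 2.42 at the distal and 3.06 at the proximal region in the authors' deposited table, against a list median of 2.50. Of the 588 listed regions, 45.1% were weaker than the distal and 70.2% weaker than the proximal region. The approximate standard errors of 0.26 and 0.22 were above the median of 0.21 for the higher regions.

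**Figure D2:**
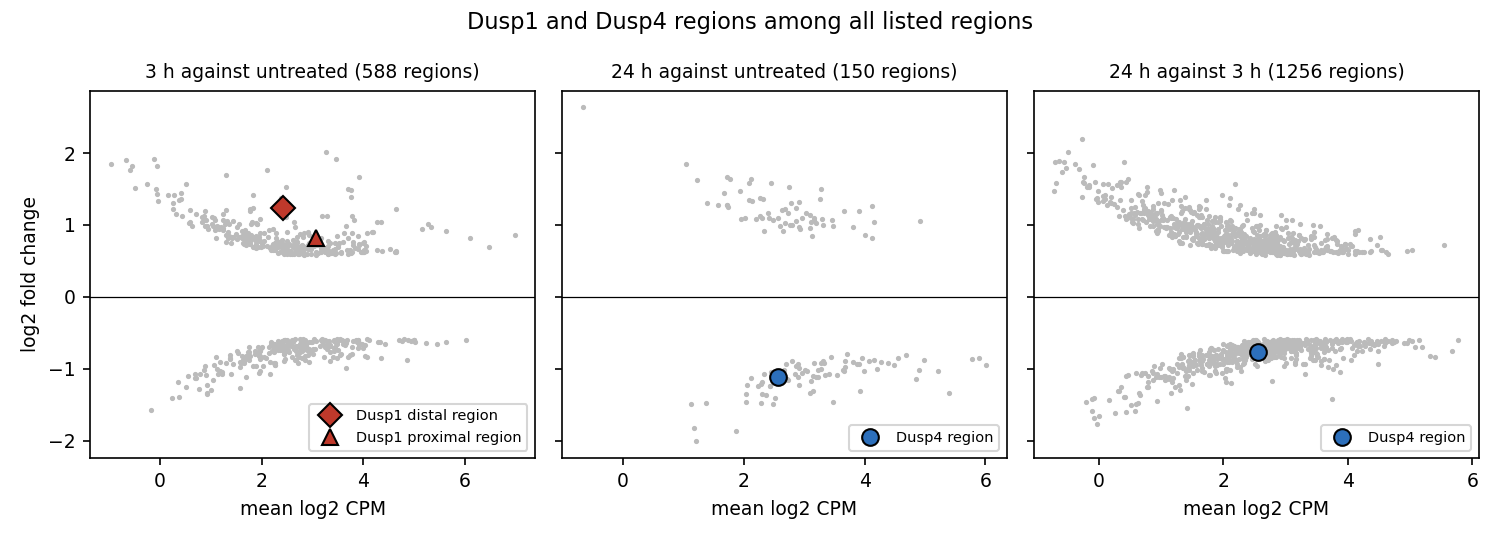
Log2 fold change against mean log2 CPM for every region of each list (grey), with the Dusp1 and Dusp4 regions marked. Listed regions leave a gap around 0 because small changes were not listed, and the marked regions lie at mean log2 CPM between 2.42 and 3.06.

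A position past the end of a gene was shared with other regions that were higher at 3 h. Of the 327 higher regions, 53 (16.2%) lay within 5 kb past the end of a protein-coding gene and outside all protein-coding bodies, and both Dusp1 regions are among them. Of the 261 lower regions 4 did (1.53%). Within 5 kb before a gene start and outside gene bodies lay 29 of the higher (8.87%) and 10 of the lower regions (3.83%). The strand was known for 80.8% of protein-coding genes. The shares among all tested regions are not known here, and no test was made of these differences.

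The Dusp1 regions were absent from both lists that involve 24 h. The authors' log2 fold changes add up across the 3 comparisons, to within rounding where all lists held the same region (3 regions), and the standard errors of a region present in more than 1 list differed by a factor of 0.93 to 1.04 between them. Absence from a list therefore bounds the estimate. If the regions were absent because they missed the list limits, the estimate for 24 h against untreated would lie between 0.36 and 1.38 on the log2 scale at the distal region and between 0.06 and 1.18 at the proximal one. The estimate for 24 h against 3 h would lie between -0.88 and 0.15 at the distal and between -0.75 and 0.37 at the proximal region. These are ranges of a point estimate, with no sampling error included and starting from a 3 h value that was selected for its size. Absence of the regions from the 24 h lists does not show a return to the untreated level.

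At Dusp4 the listed values were negative and belonged to the later time. Its region (chr8:34809605-34810065, 461 bp) lies 1995 to 2455 bp after the gene start, within an intron of ENSMUST00000033930.4 (chr8:34808174-34816446), in a gene on the plus strand (chr8:34807610-34819894, mm10, 12285 bp). It straddles the border of a CpG island of 3166 bp that also covers the gene start: 156 of its bases (33.8%) lie in the island and 305 in the adjoining shore. Accessibility of this region fell by 1.12 on the log2 scale after 24 h in the authors' deposited table, a 2.18-fold lower level that left 46.0% of the untreated value. The approximate standard error was 0.22, with a 95% interval of -1.57 to -0.67, and the authors' deposited table gave an edgeR adjusted p of 0.0444 (raw p = 3.53e-05). This is the 1 value of the 4 listed at Dusp1 and Dusp4 that passed the adjusted threshold.

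All 150 regions of the 24 h list passed that threshold, 0.103% of those tested, and the 83 lower ones were 0.0568%. The Dusp4 region ranked 115 of the 150 by p and 32 of the 83 lower regions by size, against a median of -1.06 for lower regions. Its mean log2 CPM of 2.56 in the authors' deposited table was below the list median of 2.90. Of the 150 regions, 2 touched a CpG island, and both were lower and lay in an intron with no promoter or exon annotation. The Dusp4 region is 1 of these.

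For 24 h against 3 h the Dusp4 region had a log2 fold change of -0.77 in the authors' deposited table, 1.70-fold lower, with a 95% interval of -1.22 to -0.32. The authors' deposited table gave an edgeR adjusted p of 0.434 (raw p = 0.00192), so this difference did not pass. None of the 1256 listed regions passed the adjusted threshold there (0 by edgeR, 0% of those tested), although all had a raw p below 0.005. The 563 regions listed as lower in that comparison were 0.385% of those tested, and their median log2 fold change was -0.76. The Dusp4 region ranked 637 of 1256 by p. A CpG island was touched by 75 of the 563 lower regions and by 1 of the 693 higher ones. The combination of island and intron without promoter or exon was held by 4 of the lower regions, the Dusp4 region among them. For 3 h against untreated, which shares the 3 h libraries, an island was touched by 28 of the 327 higher and 1 of the 261 lower regions. The share among all tested regions is not known here, and these differences were not tested.

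The Dusp4 region was not listed at 3 h, but its change there follows from the other values. The difference of the 2 listed log2 fold changes gave -0.35 for 3 h against untreated, with an approximate 95% interval of -0.80 to 0.10 that includes 0. As point estimates, the 3 h value was 31.4% of the 24 h value on the log2 scale, with no interval made for this ratio. Among the 78 regions listed in both 24 h comparisons and absent from the 3 h list, 40 were lower at 24 h, and all 40 were also lower in 24 h against 3 h. Their median log2 fold change was -1.12 at 24 h and their median derived value at 3 h was -0.34, so the Dusp4 region lay close to the middle of this set. The derived 3 h values of the set ran from -0.83 to 0.18, and 18 of the 40 were more negative than that of Dusp4. Membership of the set requires that the 3 h change missed the fold limit or the raw p limit of its list, so that change need not be small. Opposite signs between the 24 h comparisons would need a large 3 h change. The shared sign of the 40 was therefore largely fixed by the selection, and the comparisons share libraries.

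**Figure D3:**
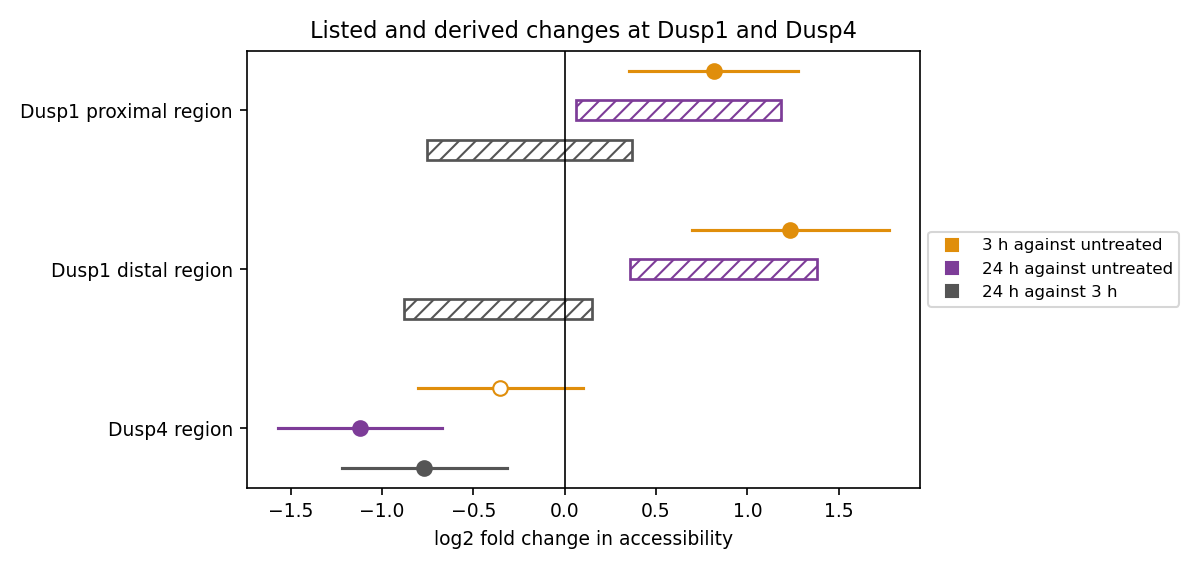
Log2 fold changes of the 3 regions in each comparison. Filled points are listed values and the open point a difference of listed values, with approximate 95% intervals as lines, and hatched boxes are the ranges left by absence from a list. The Dusp1 regions stand at 0.82 and 1.24 at 3 h, and the Dusp4 region at -1.12 at 24 h.

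Set side by side at 3 h, the values were 1.24 and 0.82 at the Dusp1 regions in the authors' deposited table and -0.35, derived, at Dusp4. The Dusp1 regions had to have a large 3 h value to be listed, and Dusp4 was absent from that list, so a gap between them at 3 h was largely fixed by the selection. The genes were also chosen with these directions known, and the contrast was not tested. Both Dusp1 regions were members through the 5 kb flank alone, while a window of 20 kb added no region at either gene. The farthest region inside the 5 kb limit was the distal Dusp1 region at 3284 bp. The nearest listed ones outside that limit were 82782 bp from Dusp1, at Neurl1b (log2 fold change 0.91 for 24 h against 3 h in the authors' deposited table), and 87658 bp from Dusp1, at Ergic1 (0.69 at 3 h in the authors' deposited table). No listed region lay between 5 kb and 100 kb from Dusp4.

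The patterns nearest to each region were sought among regions at a named gene that were listed in the same comparisons, by the Euclidean distance between log2 fold changes. For the Dusp4 region, over the 24 h comparisons and 35 candidates, the nearest were at Mroh3, Itga5, Ms4a18, Sema5b and Rbfox3, at distances of 0.08 to 0.12. The Itga5 region, at the gene of the fibronectin receptor subunit integrin alpha 5, had log2 fold changes of -1.04 at 24 h and -0.72 for 24 h against 3 h in the authors' deposited table. For the Dusp1 regions the 3 h value alone could be compared, over 312 candidates. Nearest to the distal region were regions at Tuba1b, Atf3, Ctsl, Gm15441 and Specc1 and nearest to the proximal one regions at 4933407K13Rik, Agpat3, Ndc1, Chd9 and Rps6ka1, all within 0.08. With a single value compared, this nearness says little more than that the folds were alike. The Atf3 region, at the gene of a stress-induced transcription factor, stood at 1.21 and the Rps6ka1 region at 0.82 in the authors' deposited table.

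Of the 10 typical MAP kinase phosphatase genes, Dusp1 and Dusp4 were the ones with a listed region. Both were chosen because they had one, so this count describes the choice. Of all protein-coding genes, 1.41% had a higher region at 3 h and 0.16% a lower one at 24 h. The others, Dusp2, Dusp5, Dusp6, Dusp7, Dusp8, Dusp9, Dusp10 and Dusp16, had 0 listed regions within 5 kb in any comparison. Whether regions near them were tested and unchanged cannot be told from lists that leave out regions short of their limits. Of the 18 genes for atypical dual-specificity phosphatases, 1 (5.56%) had a listed region, lower for 24 h against 3 h. Of all protein-coding genes, 1.99% had such a lower region. This region lay in an intron of Dusp22, which acts on JNK signalling. Its log2 fold change was -0.89 in the authors' deposited table (adjusted p by edgeR = 0.434). The 14 other phosphatase genes of the PP2A, PP2C and tyrosine classes had 0.

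Upstream in the cascade, the listed regions were all lower ones of 24 h against 3 h, where 1.99% of all protein-coding genes had one. The shares were 7.14% of the MAP kinase genes and 4.76% of the genes for MAP kinase kinase kinases and partners. Each of these rests on 1 gene, and no test was made. Of the 14 MAP kinase genes, Mapk11, which encodes a p38 kinase, had a region at its promoter with a log2 fold change of -0.63 for 24 h against 3 h in the authors' deposited table (adjusted p by edgeR = 0.444). The 7 MAP kinase kinase genes had 0. Of the 21 genes for the kinases above them and their partners, Map3k10, a mixed-lineage kinase gene, had a region 1744 bp away that the authors annotated to Ttc9b (log2 fold change -0.85 for 24 h against 3 h in the authors' deposited table, adjusted p by edgeR = 0.419).

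Of the 11 genes for kinases that MAP kinases activate, 2 had a region listed as higher at 3 h, against 1.41% of all protein-coding genes, and no region passed the adjusted threshold. Rps6ka1, the gene of an ERK-activated ribosomal S6 kinase, had a region at its promoter and CpG island with a log2 fold change of 0.82 in the authors' deposited table (adjusted p by edgeR = 0.921). Mknk2, the gene of a kinase of the cap-binding translation factor, had 2 regions, for which the authors' deposited table gave 0.68 and 0.81 on the log2 scale with edgeR adjusted p of 0.678 and 0.880. The region at 0.81 was assigned by position alone. The authors annotated it as intergenic with no gene symbol, and it lay 1357 bp from the Mknk2 gene body.

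Among 19 genes for feedback inhibitors and scaffolds, 3 had a region listed as higher at 3 h and 0 a lower one, where 1.41% and 0.539% of all protein-coding genes had one. In the authors' deposited table the values at 3 h were, on the log2 scale, 0.89 at the promoter of the JNK scaffold gene Mapk8ip1, 0.78 in Spred3, of the Spred family of Ras pathway inhibitors, and 0.67 in an intron of Lrig1, a negative regulator of ErbB receptors (adjusted p by edgeR = 0.398, 0.9999 and 0.990). The same Lrig1 region rose at 24 h, with a log2 fold change of 1.16 in the authors' deposited table (adjusted p by edgeR = 0.0204). For 24 h against 3 h, the authors' deposited table held a log2 fold change of -0.87 for Spred2, with an edgeR adjusted p of 0.369. Rasa3, a Ras GTPase-activating protein gene, had one of 0.84 in the authors' deposited table, with an edgeR adjusted p of 0.346.

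**Figure D4:**
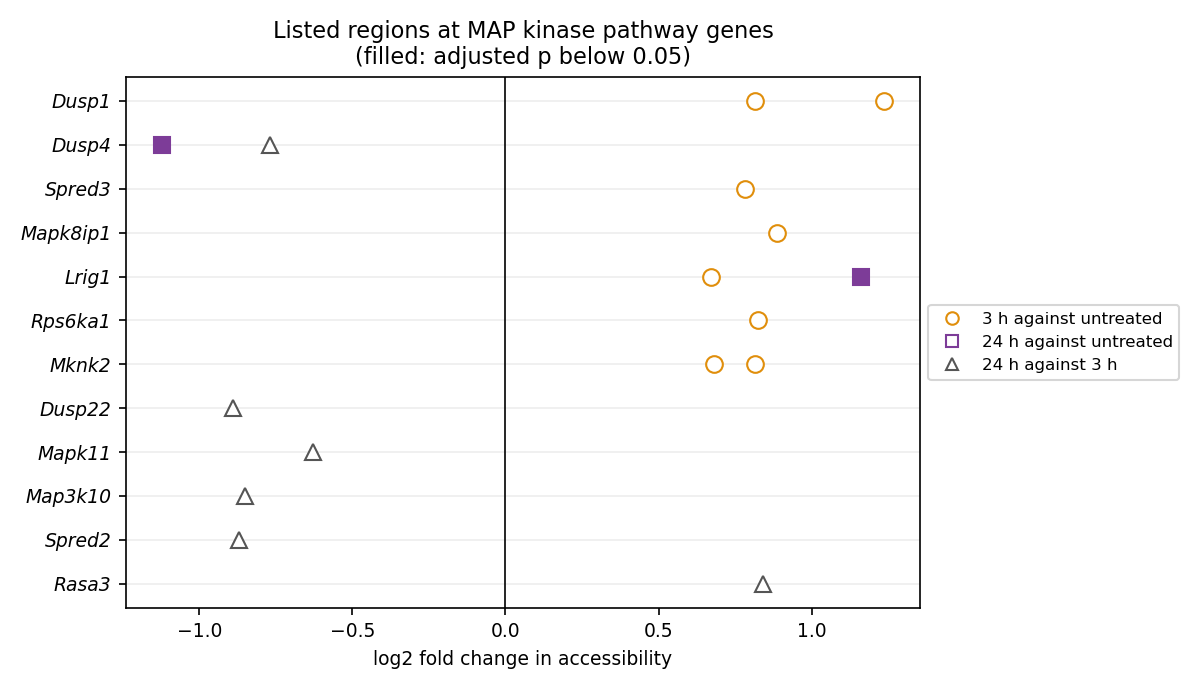
Log2 fold change of each listed region at the MAP kinase pathway genes, by comparison, with filled symbols for an edgeR adjusted p below 0.05 in the authors' deposited tables. All 8 values for 3 h against untreated, those at Dusp1 included, are positive, but genes and lists were chosen with earlier results of these data known. The filled symbols are Dusp4 and Lrig1 at 24 h.

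Without Dusp1 and Dusp4, the 8 lists held 112 genes, of which 5 (4.46%) had a region listed as higher at 3 h and 0 a lower one, where 1.41% and 0.539% of all 21896 protein-coding genes did. The median log2 fold change of their 6 regions was 0.80, against 0.77 for all 327 higher regions. At 24 h, 1 gene (0.893%) had a higher and 0 had a lower region, against 0.178% and 0.16% of all genes. For 24 h against 3 h, 4 genes (3.57%) had a lower and 1 (0.893%) a higher region, against 1.99% and 1.53%. These shares rest on 1 to 5 genes, and no test was made. The background takes no account of gene length or of how many tested regions lie near a gene. The lists were written with earlier results of these data known. Leaving out Dusp1 and Dusp4 therefore does not free the shares of that choice. Lrig1 is the 1 gene higher at 24 h and also 1 of the 5 at 3 h.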

How the data were processed

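The material was the authors' deposited table for each of 3 comparisons, with 1 line per region and annotation, collapsed to 588, 150 and 1256 regions. Log2 fold change, mean log2 CPM, raw p-value and adjusted p-value were used as deposited by the authors, and the F statistic, a score, is also the authors'. Per the submitters' processing notes, tools included Trim Galore 0.4.5, cutadapt 1.15, Bowtie2 2.3.4.1, Picard 2.20.2, MACS2 and edgeR, with build mm10. Settings of these tools, read shifting for the transposase and pooling for peak calling could change region borders and counts. The sources used here do not state them.

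By their values, 2 lists hold regions that changed 1.5-fold or more at a raw p under 0.005, and the list of 24 h against untreated an adjusted p below 0.05. The number tested, 146047, follows from the adjusted p and its rank. An approximate standard error was obtained by dividing the size of the log2 fold change by the root of F, and intervals used 21.5 degrees of freedom, recovered from F and p. Bounds for absent values widened that error by the largest ratio seen between lists. The recovery of the number tested and of the degrees of freedom, and the overlap count, held in 20 of 20 runs on simulated data. Those runs check the computation only, and the standard errors, intervals and bounds were not among the items checked. Genes and promoters came from RefSeq (GRCm38.p6). The tables have no values per library, so no test of this report's own was run.

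Genes named are both members, every member of 8 pathway lists (114 genes matched, 1 older name not) with a listed region, and the 5 nearest patterns per region. The members and lists were chosen with earlier results of these data known. Alternatives were other windows, annotation alone and stricter limits. Software was scipy 1.17.1, pandas 2.3.3, numpy 2.4.6 and matplotlib 3.10.9 under Python 3.11.15.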

Additional observations from a re-analysis of the deposited data

How the results depend on the processing

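No paired analysis was possible because no table has columns for single libraries, and for the same reason leaving out each replicate was not run. The alternative derivation for regions in all lists was not run, since neither gene has one. The Dusp4 region at 24 h was found under all 7 alternatives, but most of them could not have removed it. It lies in the gene body and carries the gene symbol, and wider windows can only add regions. Its list also already required an adjusted p below 0.05. The 2 Dusp1 regions at 3 h became 0 without a flank, by gene symbol alone, under a common raw p limit and at an adjusted p below 0.05, and 1 at a 2-fold limit. The Dusp4 region of 24 h against 3 h became 0 under the common p limit, the adjusted limit and the 2-fold limit. With a 100 kb window, 1 region at Dusp1 was listed in 24 h against 3 h where there had been 0. With a 20 kb window, pathway genes with a lower region rose from 1 to 2 at 24 h and from 5 to 10 in 24 h against 3 h, and those with a higher region in the latter from 1 to 2. The other 42 counts stayed within 1.5 times. Unknown depth limits how weakly covered regions can be read.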
